A study of Mus musculus with 2 samples.

Results

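The genes described here are 25 genes of DNA replication and S phase and 28 genes of G2 phase and mitosis, 53 members in all, taken by name. All 53 were among the 18595 genes measured in single cells of the mouse esophagus. The study compared 2 genotypes of hybrid C57BL/6J and BALB/c mice, with 1 droplet 3′ RNA library each. The control animals were Keap1 floxB/floxB, with floxed alleles and no Cre. The Keap1 cKO animals were K5CreERT2::Keap1 floxB/floxB, so both groups shared the floxed alleles and only the second carried the recombinase. CreERT2 is a tamoxifen-inducible Cre, here driven by the keratin 5 promoter of basal epithelial cells; the other lineages were therefore not its intended targets. KEAP1 is the ubiquitin ligase adaptor through which cells keep NRF2, an activator of antioxidant genes, low. The muscle layers had been removed before the tissue was dispersed. The sources used here give neither the animals' age, nor how many were pooled per library, nor when Cre was induced. Each genotype is a single unreplicated library. No p-value is therefore given, and intervals in parentheses are 95% intervals for counting error alone.

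The control library held 2472 cells with a median of 11293.5 unique molecular identifiers (UMIs, each a captured transcript) per cell, and the Keap1 cKO library held 2381 cells with a median of 8193. They shared 5 cell barcodes. Cells carried 19 cluster numbers and 8 cell types from the authors. Cluster 16, annotated by the authors as T cells, was split by marker UMIs, because its 16 epithelial-like cells held a median of 616.5 keratinocyte marker UMIs and at most 1 T cell marker UMI. Its other cells were 6 T cell-like cells in the control and 35 in the Keap1 cKO library, 1 and 11 phagocyte-like cells (macrophage or dendritic markers), and 3 cells that followed fibroblast or endothelial markers. Cluster 12, annotated as B cells but led by Cd207 and class II genes, was counted with the phagocytes. Clusters 15 and 16 were themselves set apart by genes of this kind, so their sizes are not given as results. Keap1, the targeted gene, was lower in the Keap1 cKO library in clusters 4, 15 and the epithelial cells of 16, by less than 1.5-fold. It stood at 85.6 and 76.1 counts per 1000000 UMIs (CPM) in control cells with and without a phase call (defined below). In Keap1 cKO cells it stood at 59.6 and 58.2 CPM, from 133 and 39 UMIs. Recombination of the floxed alleles was not tested.

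The MCM helicase is loaded at origins by Cdc6 and Cdt1 before S phase. In S phase it opens the DNA, ribonucleotide reductase and thymidylate synthase supply deoxynucleotides, and PCNA holds polymerases on the template. In G2 phase cyclin B and Cdk1 drive entry into mitosis, aurora and polo-like kinases build the spindle, and the anaphase-promoting complex with Cdc20 and Ube2c ends it by degrading cyclins and other proteins. Many S phase genes are transcribed under E2F factors, and many G2/M genes through a CHR element, often beside CCAAT boxes bound by NF-Y. In stratified squamous epithelium, division is normally confined to the basal layer and the cells just above it, while the layers above differentiate.

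Promoter sequence of the members was taken from RefSeq on GRCm38.p6, as windows of 300 bases (250 before and 50 after a transcription start). It was matched for 47 of the 53 members, which gave 50 windows. Gins2, Mcm4, Smc4, Tpx2, Aurkb and Exo1 were not matched. The motifs searched on both strands were the CHR letters TTTGAA or TTCGAA, the E2F letters TTTCGCGC, TTTGGCGC, TTTCCCGC or TTTGCCGC, and CCAAT; matches of different motifs may overlap. The 150 bases before the start are shown for 3 S and 5 G2/M members to show how the motif letters of both lists lie in them, in lower case with every motif match in capitals on either strand. Each reads 5′ to 3′ on the gene's own strand, and a match on the other strand appears as its reverse complement.
Mcm6, chr1:128359706-128359855, minus strand: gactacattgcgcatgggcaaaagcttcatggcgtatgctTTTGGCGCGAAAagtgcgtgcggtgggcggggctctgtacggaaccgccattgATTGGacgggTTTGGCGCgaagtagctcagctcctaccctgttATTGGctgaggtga
Mcm5, chr8:75109359-75109508, plus strand: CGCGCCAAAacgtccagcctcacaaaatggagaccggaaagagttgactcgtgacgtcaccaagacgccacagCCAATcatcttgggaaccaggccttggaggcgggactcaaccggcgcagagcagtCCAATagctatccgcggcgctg
Dtl, chr1:191575545-191575694, minus strand: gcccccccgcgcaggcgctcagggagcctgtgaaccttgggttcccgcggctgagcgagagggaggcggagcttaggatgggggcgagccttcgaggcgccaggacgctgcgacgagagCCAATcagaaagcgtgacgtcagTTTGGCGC
Cdk1, chr10:69352913-69353062, minus strand: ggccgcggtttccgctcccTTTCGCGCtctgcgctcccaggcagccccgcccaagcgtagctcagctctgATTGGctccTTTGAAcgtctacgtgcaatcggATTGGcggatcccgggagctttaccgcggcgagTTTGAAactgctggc
Cdc20, chr4:118437344-118437493, minus strand: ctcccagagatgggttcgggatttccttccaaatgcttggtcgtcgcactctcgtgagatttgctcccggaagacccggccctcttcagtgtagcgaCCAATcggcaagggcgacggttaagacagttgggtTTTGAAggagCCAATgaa
Top2a, chr11:99024190-99024339, minus strand: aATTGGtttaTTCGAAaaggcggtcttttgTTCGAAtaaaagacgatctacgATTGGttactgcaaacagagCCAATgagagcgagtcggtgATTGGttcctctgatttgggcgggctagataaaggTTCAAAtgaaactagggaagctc
Ckap2l, chr2:129297213-129297362, minus strand: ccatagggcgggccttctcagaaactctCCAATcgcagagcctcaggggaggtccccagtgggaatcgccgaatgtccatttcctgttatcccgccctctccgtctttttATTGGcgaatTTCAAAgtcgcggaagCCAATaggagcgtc
Mki67, chr7:135716380-135716529, minus strand: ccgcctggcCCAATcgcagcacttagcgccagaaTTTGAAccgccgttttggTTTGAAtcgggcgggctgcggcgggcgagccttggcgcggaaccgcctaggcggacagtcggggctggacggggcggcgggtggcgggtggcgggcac

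CHR letters were found in 20 of the 25 G2/M windows (80%), in 4 of the 25 S windows (16%) and in 19.2% of the 32851 windows of all promoters. E2F letters showed the opposite split, with 11 of 25 S windows (44%) against 1 of 25 G2/M windows (4%) and 2.26% of all windows. The single G2/M window with E2F letters was that of Cdk1, the kinase that drives mitotic entry. CCAAT was in 80% of G2/M windows, 60% of S windows and 37.4% of all windows. CHR and CCAAT stood together in 72% of G2/M windows, 12% of S windows and 7.52% of all windows. These matches describe letters in the windows shown and no binding was measured.

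The member genes were summed over the cells of each cluster, separately for the S and the G2/M list, and divided by all UMIs of those cells. Sums were highest in the cells of cluster 16, whatever their lineage, and for G2/M genes also in cluster 15. In T cell-like cells of cluster 16, S genes stood at 3472 CPM (3090 to 3888) in the control and 3473 (3325 to 3627) in the Keap1 cKO library. The 16 control epithelial cells of that cluster held 2256 CPM (2120 to 2398) of S genes and 14667 CPM (14318 to 15023) of G2/M genes. Cluster 15, an epithelial cluster, held 13686 CPM of G2/M genes in the control and 9602 in the Keap1 cKO library, with only 476 and 755 CPM of S genes. At the other end stood erythrocytes, which carry no nucleus: S genes had 7.31 CPM (3.99 to 12.3) in the control and 17.4 CPM (10.7 to 26.5) in the Keap1 cKO library, the lowest S sums of any cluster. Their G2/M sums of 126 and 134 CPM were made largely of 2 genes, Ube2c (63.7 and 50.4 CPM) and Nusap1 (17.7 and 33.1 CPM), a ubiquitin-conjugating enzyme and a spindle protein. Fibroblast clusters 1 and 5 held between 190 and 203 CPM of S genes and between 184 and 217 CPM of G2/M genes in both libraries.

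**Figure D1:**
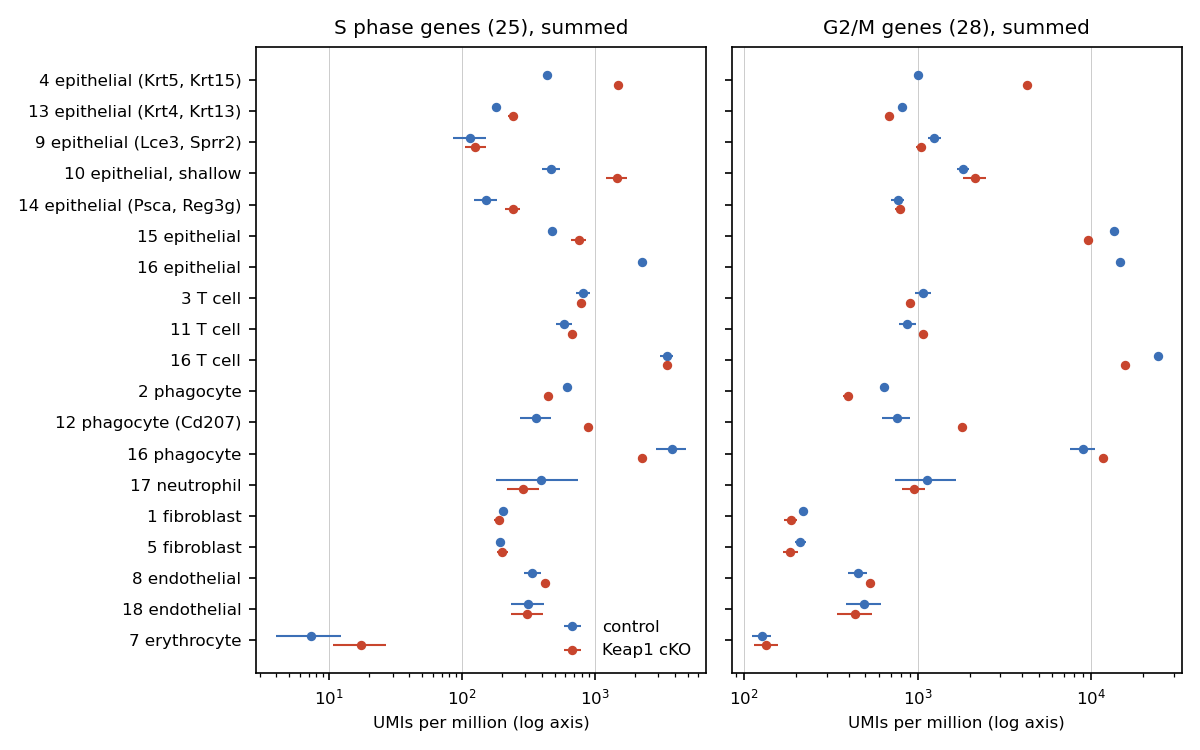
Summed CPM of the 25 S phase genes (left) and 28 G2/M genes (right) in each cluster except 6 and 19, on log axes, with cluster 16 split by lineage. Points are the control (blue) and Keap1 cKO (red) libraries and lines are exact Poisson intervals for counting error. The libraries stand apart in clusters 4 and 12 in both panels and, among others, in cluster 10 in the S panel, while erythrocytes are lowest in both panels.

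Some members were also present in cells with few others. Tubb4b, a beta-tubulin, stood at 1053 CPM in the control and 872 CPM in the Keap1 cKO cells of cluster 9, an epithelial cluster. Hmgb2, a DNA-bending chromatin protein, stood at 695 CPM and 713 CPM in neutrophils (cluster 17), from 16 and 133 UMIs, and at 568 and 461 CPM in T cell cluster 3. Cdca7, which acts in chromatin remodelling, stood at 77.5 and 45.0 CPM in epithelial cells, against 13.3 and 13.02 CPM in T cells. Calls were therefore also made on 46 members, without Tubb4b, Hmgb2, Smc4, Slbp, Dut, Ung and Pcna. These 7 were set aside by judgement and not by a measured rule: Ung had only 291 UMIs in all cells, while members that stayed, such as Mcm7 with 1526, had more.

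**Figure D2:**
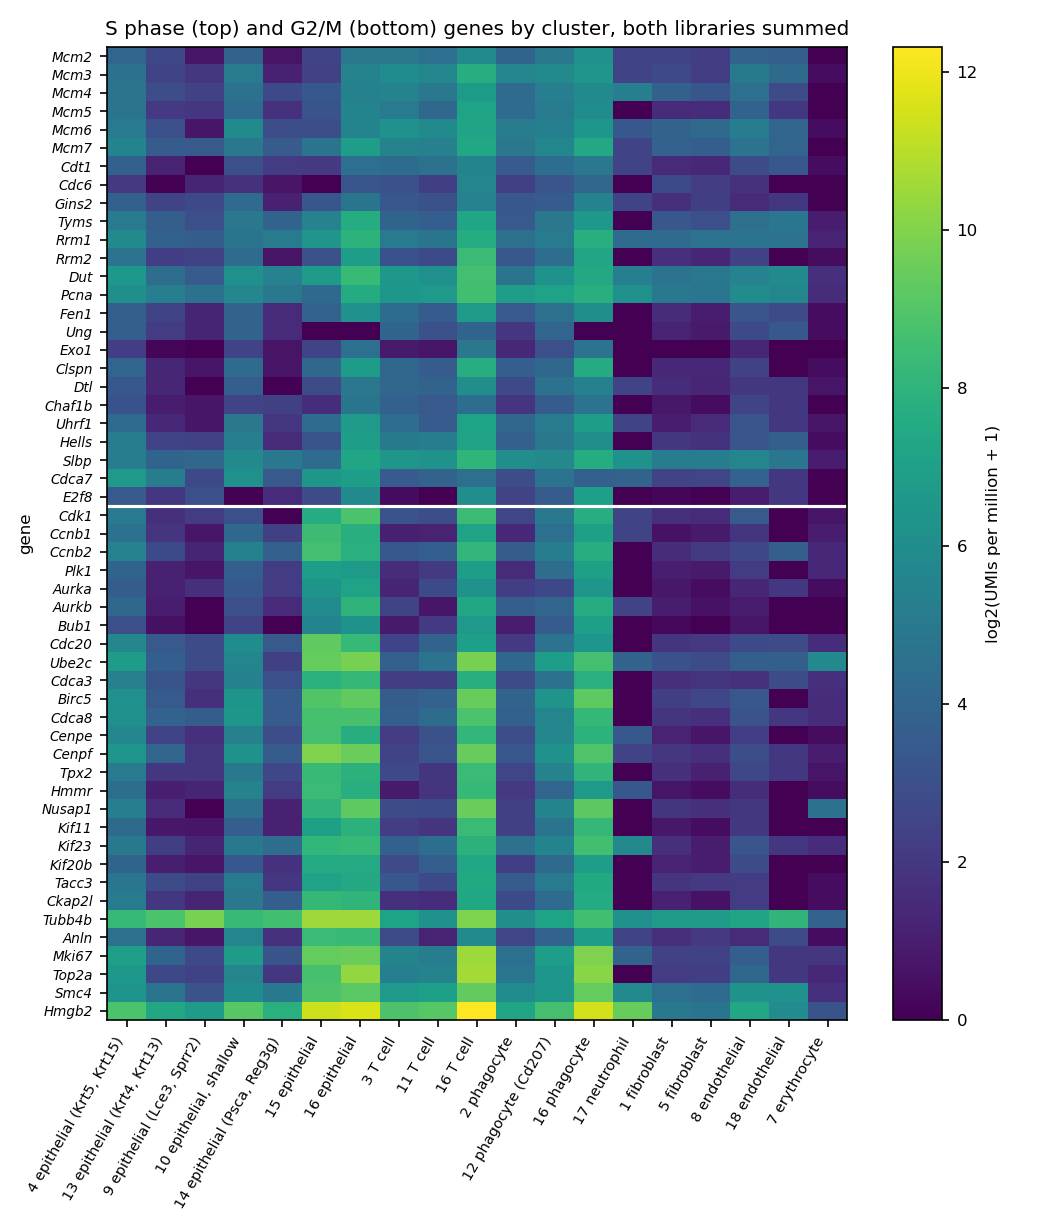
Level of each member gene by cluster, both libraries summed, as log2(CPM + 1), with S phase genes above the white line and G2/M genes below it. Columns 15 and 16 hold the brightest G2/M rows; Tubb4b and Hmgb2 are bright in many other columns, and Ube2c and Nusap1 stand out in erythrocytes.

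Single cells were then scored. Each cell was thinned to 2000 UMIs, and 857 of 4853 cells that were shallower were left out, among them 222 control and 158 Keap1 cKO epithelial cells. An S call needed UMIs of at least 3 different S genes, and a G2/M call UMIs of at least 3 different G2/M genes; a cell meeting both has both calls. Among the 3996 cells scored, 568 had a call and 115 had both. A call records transcripts and is not by itself taken as a sign that a cell was cycling. None of 178 control and 120 Keap1 cKO erythrocytes was called, for which 3 counts, the limit taken for a count of 0, would be 1.69% and 2.5% and the exact upper limits are 2.05% and 3.03%, at median depths of 10831 and 10271.5 UMIs. These counts describe erythrocytes of those depths after thinning to 2000 UMIs only. Without thinning, 9 control (5.06%) and 8 Keap1 cKO (6.67%) erythrocytes were called. The background from transcripts free in the droplets was not tested in other lineages or in shallower cells, because the share of free transcripts was not measured.

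Epithelial cells and T cells held most of the called cells. In the control library, 206 of 642 epithelial cells were called, or 32.1% (28.5 to 35.9), and in the Keap1 cKO library 70 of 264, or 26.5% (21.3 to 32.3); the intervals overlap. Among T cells 34 of 121 (28.1%, 20.3 to 37.0) and 145 of 569 (25.5%, 22.0 to 29.3) were called. Phagocytes had 18 of 171 (10.5%) and 56 of 415 (13.5%). Endothelial cells had 4 of 75 (5.33%) and 19 of 192 (9.90%), and fibroblasts 6 of 817 (0.734%) and 3 of 305 (0.984%). Without the 7 members set aside, the epithelial shares were 22.1% and 22.7%, the order of the libraries turned, and the T cell shares were 9.09% (4.63 to 15.7) and 12.8% (10.2 to 15.9), with overlapping intervals. Without them 10 control (5.85%) and 38 Keap1 cKO (9.16%) phagocytes, 1 and 6 endothelial cells and 2 and 1 fibroblasts were still called. Cells lay close to the threshold: in the list where they had more genes, 122 control and 47 Keap1 cKO epithelial cells had exactly 2, and 56 and 7 had exactly 3. Unthinned shares were taken over all 864 control and 422 Keap1 cKO epithelial cells, the shallow ones included. Of these 73.3% and 56.2% were called, at median depths of 17760.5 and 5072.5 UMIs, and 50.8% and 38.2% had both calls. The order of the libraries for both calls also turned, but the set of cells changed together with the thinning.

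Cells with both calls were spread differently over the lineages of the 2 libraries. Of 30 such cells in the control library, 19 were epithelial, 7 were T cells, 3 were phagocytes and 1 lay in cluster 6, a shallow unnamed cluster. Of 85 in the Keap1 cKO library, 29 were epithelial, 37 were T cells, 15 were phagocytes, 3 were endothelial and 1 was a fibroblast, a cluster 16 cell that also held 81 T cell marker UMIs. As a share of the cells scored, both calls were in 2.96% (1.79 to 4.58) of control and 10.98% (7.48 to 15.4) of Keap1 cKO epithelial cells. For T cells the shares were 5.79% (2.36 to 11.6) and 6.503% (4.62 to 8.85), which overlap. The 3 endothelial cells with both calls came from 192 cells and 0 were found among 75 in the control, where 3 counts would be 4% and the exact upper limit is 4.80%. Without the 7 members set aside, both calls were in 12 control (1.87%) and 16 Keap1 cKO (6.06%) epithelial cells, 3 (2.48%) and 28 (4.92%) T cells, 3 and 8 phagocytes and 0 and 1 endothelial cells. Candidate doublets, cells with markers of a second lineage, numbered 113 and 154 over all cells and 21 among the called cells; leaving them out moved none of the 12 shares recomputed beyond its interval.

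**Figure D3:**
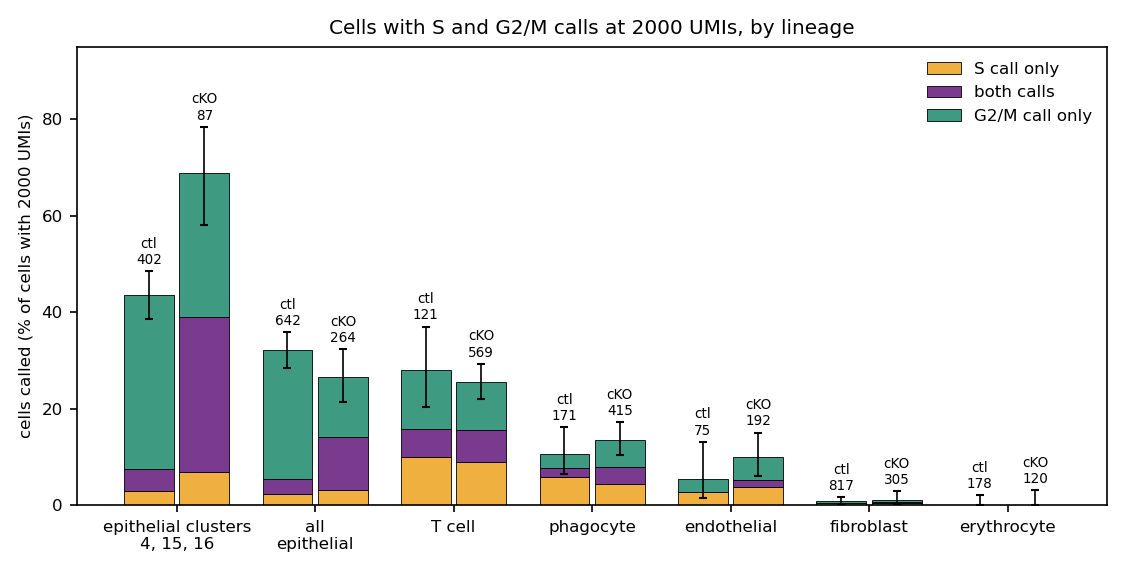
Share of cells with an S call only, both calls or a G2/M call only, among cells thinned to 2000 UMIs, by lineage; bars start at 0, left bars are control and right bars Keap1 cKO, with the number of cells scored above each. Lines are exact Clopper-Pearson intervals of the share with any call; in epithelial cells the band with both calls is 2.96% in the control and 10.98% in the Keap1 cKO library.

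The mix of calls was compared in the 3 lineages with most called cells. Of the 206 called control epithelial cells, 172 (83.5%, 77.7 to 88.3) had a G2/M call only, 19 (9.22%, 5.64 to 14.03) had both and 15 (7.28%, 4.13 to 11.7) an S call only. Of the 70 called Keap1 cKO epithelial cells, 33 (47.1%, 35.1 to 59.5) had a G2/M call only, 29 (41.4%, 29.8 to 53.8) had both and 8 (11.4%, 5.07 to 21.3) an S call only. In T cells the mix was alike within counting error: 44.1% and 39.3% had a G2/M call only, 20.6% and 25.5% had both, and 35.3% and 35.2% an S call only. Phagocytes, with 18 and 56 called cells, had an S call only in 55.6% (30.8 to 78.5) and 32.1% (20.3 to 46.0), both in 16.7% and 26.8%, and a G2/M call only in 27.8% (9.69 to 53.5) and 41.1% (28.1 to 55.0), with overlapping intervals. These mixes depend on the 7 members set aside. Without them, S only, both and G2/M only were in 7, 12 and 123 of 142 called control epithelial cells. In Keap1 cKO epithelial cells they were in 11, 16 and 33 of 60. For T cells the counts were 4, 3 and 4 of 11 in the control and 28, 28 and 17 of 73 in the Keap1 cKO library. The genotypes' mixes were not compared by a test, since each rests on 1 library.

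Called epithelial cells sat in different clusters in the 2 libraries. In the control they lay in cluster 4 (84 cells), cluster 15 (75), cluster 10 (17), epithelial cells of cluster 16 (16), cluster 13 (10) and clusters 9 and 14 (2 each). In the Keap1 cKO library 53 of 70 lay in cluster 4, 7 in cluster 15, 4 in cluster 9, 3 in cluster 13, 2 in cluster 10 and 1 in cluster 14, with none in cluster 16. A comparison inside cluster 4 alone therefore sets 84 of 311 control cells (27.01%, 22.2 to 32.3) against 53 of 80 Keap1 cKO cells (66.3%, 54.8 to 76.4), and both calls in 4 cells (1.29%) against 26 (32.5%). Pooling clusters 4 and 15 with the epithelial cells of cluster 16, a choice made after seeing the data, removes that difference in assignment. In the pool 175 of 402 control cells (43.5%, 38.6 to 48.5) and 60 of 87 Keap1 cKO cells (69.0%, 58.1 to 78.5) were called. Both calls were in 18 control cells (4.48%, 2.67 to 6.98) and 28 Keap1 cKO cells (32.2%, 22.6 to 43.1) of the pool, while a G2/M call alone was in 145 (36.1%) and 26 (29.9%). Without the 7 members set aside the pool gave 32.6% and 63.2% called, and 2.74% and 18.4% with both. Within the pool, depth moved with the call in the Keap1 cKO library only: called cells had a median of 41886.5 UMIs against 26254 in the others, and control ones 20365 against 20664. Called phagocytes were deeper than the others in both libraries, at 18499 against 7850 UMIs in the control and 14212 against 7187 in the Keap1 cKO library. All were thinned to the same 2000 UMIs before scoring; a part of RNA content in the calls was not tested.

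**Figure D4:**
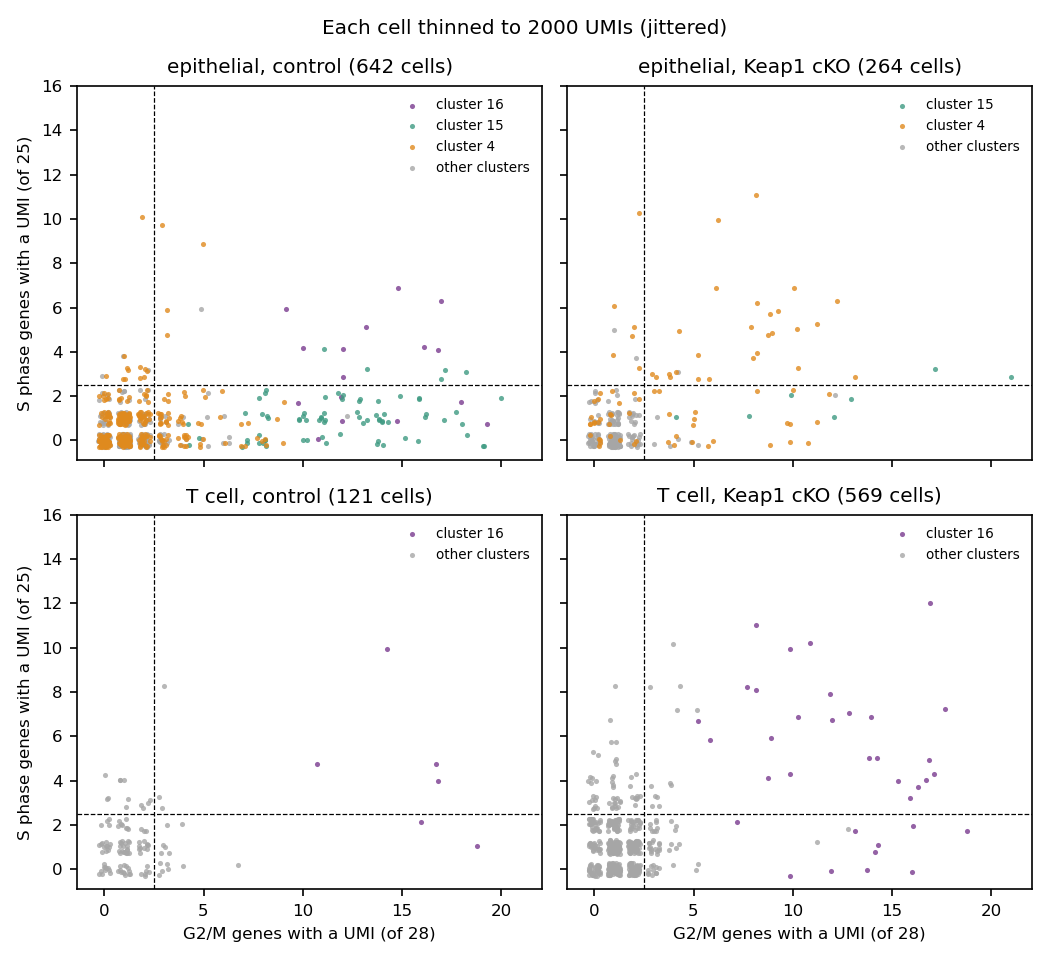
Number of S phase genes (vertical axis, of 25) and of G2/M genes (horizontal axis, of 28) with a UMI in each epithelial cell (top) and T cell (bottom), thinned to 2000 UMIs and slightly jittered, control left and Keap1 cKO right. Dashed lines mark the threshold of 3 genes; the upper right field, both calls, holds 19 control epithelial cells of several clusters and 29 Keap1 cKO ones, most of them from cluster 4, while in T cells it is filled mainly by cluster 16.

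The S genes as a group stood higher in Keap1 cKO epithelial cells and the G2/M genes did not. Summed S genes had 401 CPM (391 to 411) in the control against 698 CPM (679 to 717) in Keap1 cKO cells, for a log2 ratio of 0.80 (0.74 to 0.85). Summed G2/M genes had 2842 CPM (2814 to 2870) and 2379 CPM (2344 to 2414), a log2 ratio of -0.26 (-0.28 to -0.23). In the pool of clusters 4, 15 and 16, S genes had 540 and 1414 CPM, a log2 ratio of 1.39 (1.33 to 1.45), and G2/M genes 4122 and 4810 CPM, 0.22 (0.19 to 0.25). In cluster 4 alone the ratios were 1.77 (1.70 to 1.84) and 2.09 (2.04 to 2.13). The direction in the whole class rests on these clusters: without cluster 4 the epithelial S ratio was -0.46, and without clusters 15 and 16 the G2/M ratio was 1.12. In sums over many cells, fewer cells with a transcript and fewer transcripts per cell cannot be told apart. In epithelial cluster 13, S genes had 180 and 240 CPM (log2 0.41) and G2/M genes 809 and 687 CPM (-0.24). There 9 of 17 measured S and 7 of 17 measured G2/M members were at least 1.5-fold higher and 0 and 2 lower, where 14.3% of genes were higher and 15.4% lower. Cluster 9 had UMIs enough for only 4 members, of which 0 were higher and 1 lower, where 19.8% of genes were higher and 30.2% lower.

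Counted gene by gene, all 53 members had at least 20 UMIs in epithelial cells. Of the S members 21 of 25 were at least 1.5-fold higher in the Keap1 cKO library, where 17% of the 12677 genes measured were, and 1 was at least 1.5-fold lower, where 15.8% were. The median S log2 ratio was 1.17, that of all genes -0.03. Of the G2/M members 1 of 28 was higher and 5 were lower, with a median of -0.24. In the pool, where 17% of 11372 genes were higher and 17.9% lower, 24 of 25 S members and 9 of 28 G2/M members were higher and 0 and 1 were lower, with medians of 1.77 and 0.22 against -0.00 for all genes. In cluster 4 alone, where 18.9% of 10956 genes were higher and 18.2% lower, 24 of 25 S and 28 of 28 G2/M members were higher, with medians of 2.43 and 2.98.

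The 9 helicase and licensing genes were all at least 1.5-fold higher in Keap1 cKO epithelial cells, between 0.73 (Gins2, a subunit of the GINS complex that joins the helicase) and 2.33 (Mcm5, a helicase subunit) on the log2 scale. Mcm5 had 5.98 CPM in the control and 30.1 CPM in the Keap1 cKO library, 2.33 (1.96 to 2.71). Mcm2, another of the 6 helicase subunits, had 4.99 and 17.8 CPM, 1.84 (1.41 to 2.27). The subunits with most UMIs differed less: Mcm6 had 14.7 and 29.0 CPM, 0.98 (0.70 to 1.26), and Mcm7 had 24.2 and 40.4 CPM, 0.74 (0.51 to 0.97). The intervals of Mcm5 and Mcm7 do not overlap, so subunits of 1 hexamer stood at unequal ratios. Inside the pool of clusters 4, 15 and 16 the order was similar, with Mcm5 at 9.22 and 66.2 CPM (2.84) and Mcm7 at 32.8 and 84.7 CPM (1.37).

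Of the 4 nucleotide supply genes, 2 were at least 1.5-fold higher. Rrm2, the regulated small subunit of ribonucleotide reductase, had 6.68 CPM in the control and 32.6 CPM in the Keap1 cKO library, 2.29 (1.94 to 2.65). Rrm1, its large subunit, had 31.0 and 69.2 CPM, 1.16 (0.97 to 1.35). Dut, which removes dUTP, had 61.2 and 80.4 CPM, 0.39 (0.24 to 0.55), and its sign turned to -0.01 when each cell was given equal weight. All 6 fork and repair genes were at least 1.5-fold higher. Pcna, the sliding clamp, had 40.4 and 70.8 CPM, 0.81 (0.64 to 0.98). Clspn, a checkpoint mediator at the fork, had 7.88 and 17.4 CPM, 1.15 (0.77 to 1.53). Exo1, a repair exonuclease, rested on 17 and 40 UMIs, 2.17 (1.32 to 3.08).

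Of the 6 chromatin and S phase regulators, 4 were higher and 1 was lower. Chaf1b, a histone chaperone subunit that places nucleosomes behind the fork, had 2.74 and 8.45 CPM, 1.62 (1.03 to 2.24). Slbp, which binds histone mRNA, had 25.1 and 35.2 CPM, 0.49 (0.25 to 0.72). Cdca7 went the other way, with 77.5 CPM in the control and 45.0 CPM in the Keap1 cKO library, -0.79 (-0.97 to -0.61). It was also lower in the pool, with 106 and 80.6 CPM (-0.40, -0.61 to -0.19), and in cluster 4, with 109 and 78.8 CPM (-0.47, -0.70 to -0.24), where each of the other 24 S members was at least 1.5-fold higher. Cdca7 had 67.5 CPM in control and 30.9 CPM in Keap1 cKO epithelial cells without a call, and 103 and 72.9 CPM in called ones.

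Mitotic kinases, cyclins and degradation factors were mixed in epithelial cells, with 1 of 10 at least 1.5-fold higher and 1 lower. Aurkb, the kinase of the chromosomal passenger complex, had 15.1 CPM in the control and 24.2 CPM in the Keap1 cKO library, 0.68 (0.38 to 0.97). Cdk1 had 38.2 and 48.2 CPM, 0.34 (0.14 to 0.53). Its partners went the other way, with Ccnb1 at 51.0 and 36.4 CPM, -0.49 (-0.70 to -0.29), and Ccnb2 at 73.8 and 38.6 CPM, -0.93 (-1.13 to -0.75). Cdc20, the activator of the anaphase-promoting complex, had 97.2 and 72.3 CPM, -0.43 (-0.57 to -0.28). Ube2c, its ubiquitin-conjugating enzyme, had 129 and 132 CPM, 0.03 (-0.09 to 0.14).

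In the kinetochore and passenger group 2 of 4 genes were lower and none was 1.5-fold higher. Cenpf, a large kinetochore-associated protein, had 186 CPM in the control and 72.6 CPM in the Keap1 cKO library, -1.36 (-1.50 to -1.23), the lowest ratio of the 53. Birc5 (survivin), a passenger subunit, had 93.0 and 96.2 CPM, 0.05 (-0.08 to 0.18). Among 10 spindle and cytokinesis genes, 2 were lower. Anln, which scaffolds the contractile ring, had 57.2 and 28.8 CPM, -0.99 (-1.21 to -0.77). Tacc3, a spindle crosslinker, had 27.3 and 36.5 CPM, 0.42 (0.19 to 0.65). Tubb4b had 545 and 486 CPM, -0.17 (-0.22 to -0.11), and Nusap1 50.4 and 57.4 CPM, 0.19 (0.01 to 0.36); both signs turned when each cell had equal weight.

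None of the 4 chromosome structure genes passed 1.5-fold. Mki67, the chromosome-coating protein Ki-67, had 147 CPM in the control and 114 CPM in the Keap1 cKO library, -0.36 (-0.48 to -0.25). Top2a, the topoisomerase that untangles sister DNA, had 95.2 and 129.9 CPM, 0.45 (0.33 to 0.57). Hmgb2 had 612 and 509 CPM, -0.27 (-0.32 to -0.21). In the pool of clusters 4, 15 and 16 the same genes read 232 and 267 CPM for Mki67 (0.20), 155 and 318 CPM for Top2a (1.04) and 903 and 1002 CPM for Hmgb2 (0.15). Cenpf was still lower there, at 297 and 168 CPM (-0.82, -0.96 to -0.68), as were Ccnb2 (-0.52) and Anln (-0.41). In cluster 4 alone the sign turned, with Cenpf at 0.67 and Ccnb2 at 1.05, and all 28 G2/M members were at least 1.5-fold higher. Cdk1 was at 62.2 and 119 CPM in the pool (0.94, 0.74 to 1.13) while Ccnb1 was at 83.8 and 84.7 CPM (0.02, -0.20 to 0.23).

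**Figure D5:**
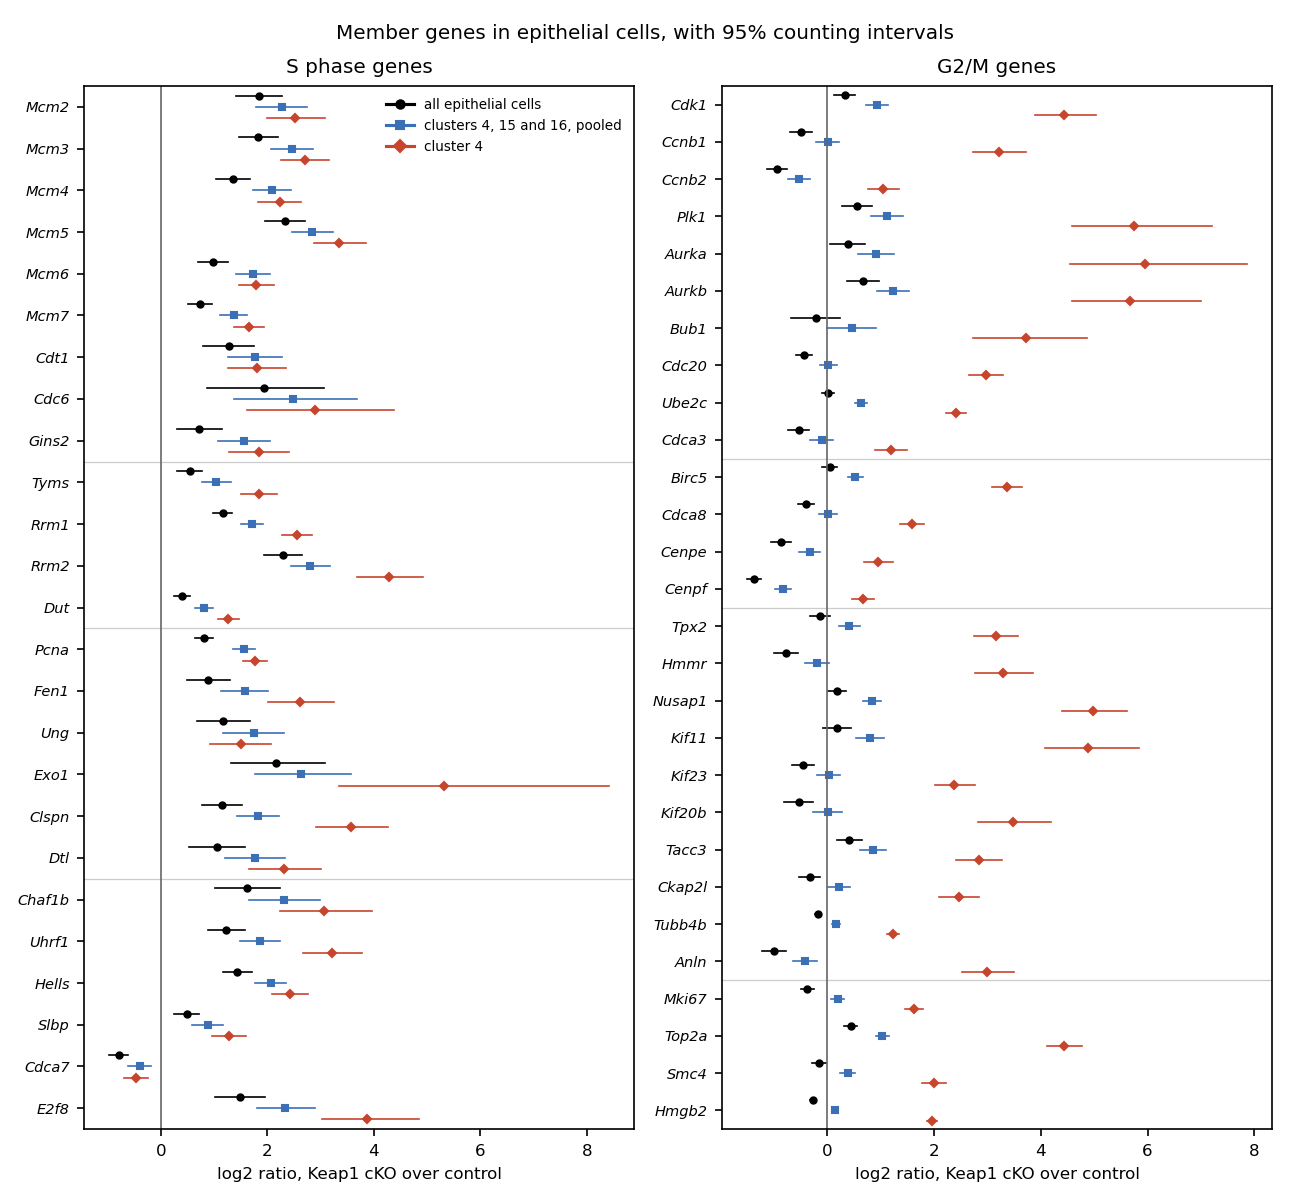
Log2 ratio of CPM, Keap1 cKO over control, for each member in all epithelial cells (black circles), in the pool of clusters 4, 15 and 16 (blue squares) and in cluster 4 alone (red diamonds), with exact conditional intervals for counting error; grey lines separate the role groups. S genes lie right of 0 in all 3 sets except Cdca7, while G2/M genes lie around 0 in all epithelial cells and right of 0 in cluster 4.

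The other cell cycle genes were taken from 5 lists outside the members, and their counts stand beside 17% of all epithelial genes at least 1.5-fold higher and 15.8% lower. Of 29 further replication factors 28 had at least 20 UMIs in epithelial cells, 14 were at least 1.5-fold higher and none was lower, with a median log2 ratio of 0.58. Rfc2, a clamp loader subunit, had 25.8 and 32.1 CPM (0.31), Tipin, a fork protection factor, 18.1 and 24.3 CPM (0.43), Mcm10, a replication initiation factor, 1.34 and 5.64 CPM (2.08), and Rfc4 22.5 and 21.2 CPM (-0.09, -0.37 to 0.19). Of 43 further mitosis genes 6 were higher and 3 lower, with a median of 0.26. Cks2, a Cdk-binding subunit, had 150 and 102 CPM (-0.55), Bub3, a checkpoint protein, 80.2 and 80.1 CPM (-0.00), Cenpa, the centromeric histone, 125 and 74.5 CPM (-0.75), and Mybl2, a transcription factor of the G2/M programme, 2.95 and 9.26 CPM (1.65). Of 17 measured G1/S regulators of 18, 5 were higher and 2 lower. Ccnd2 (cyclin D2) had 358 and 128 CPM, -1.49 (-1.59 to -1.39), and was at 483 and 112 CPM in the pool (-2.11). E2f7, a repressor of the E2F family, had 1.34 and 7.51 CPM (2.49), from 19 and 56 UMIs, and Cdk4 had 139 and 144 CPM (0.05). Of 14 measured inhibitors and arrest genes of 15, 1 was higher and 3 lower, with a median of -0.21. Gadd45b, a stress-induced gene, had 97.2 and 43.3 CPM (-1.17), and Cdkn2b, which encodes the CDK4 and CDK6 inhibitor p15, 10.4 and 18.2 CPM (0.81). The antiproliferative genes Btg1 and Btg2 had 191 and 168 CPM (-0.18) and 173 and 132 CPM (-0.39). Of 9 abundant genes that rise in dividing cells none was higher and 2 were lower, with Stmn1, a tubulin-binding protein, at 431 and 214 CPM (-1.01), Hmgb1 at 1111 and 817 CPM (-0.44), H2afz at 761 and 818 CPM (0.10) and Ranbp1, a Ran-binding protein, at 259 and 349 CPM (0.43).

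In T cells the summed G2/M genes were lower in the Keap1 cKO library, as in all epithelial cells, and the interval of the S ratio included 0. Summed S genes had 1012 CPM (942 to 1087) in 123 control T cells and 1081 CPM (1053 to 1111) in 576 Keap1 cKO T cells, for a log2 ratio of 0.10 (-0.01 to 0.21). Summed G2/M genes had 3666 CPM (3531 to 3806) and 2699 CPM (2654 to 2745), -0.44 (-0.50 to -0.38). Of the 2767 control G2/M UMIs, 2118 came from 6 cells of cluster 16, and without clusters 15 and 16 the ratio was -0.03. Of the S members 8 of 25 were at least 1.5-fold higher and 0 lower, where 18.8% of 10399 genes were higher and 11.4% lower, and of the G2/M members 0 of 28 were higher and 10 lower. Mcm2 had 15.9 CPM from 12 UMIs and 32.1 CPM from 160 UMIs, 1.01 (0.17 to 1.99), Pcna 154 and 121 CPM, -0.35 (-0.64 to -0.05). Cdc20 had 45.1 and 17.2 CPM, -1.39 (-1.98 to -0.77), Cenpf 170 and 75.1 CPM, -1.17 (-1.47 to -0.87), and Mki67 276 and 199 CPM, -0.47 (-0.69 to -0.25). By cluster, the summed S and G2/M log2 ratios came to -0.04 and -0.24 for cluster 3, and for cluster 11 they were 0.21 and 0.29. In cluster 3, 7 of 39 measured members were at least 1.5-fold higher and 8 lower, where 21.6% of all measured genes were higher and 14.5% lower. In cluster 11, 4 of 14 measured S and 3 of 10 measured G2/M members were higher and 0 and 1 were lower, where 23.2% were higher and 9.34% lower.

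Phagocytes as a class had more G2/M transcripts in the Keap1 cKO library, and their clusters went opposite ways. Summed G2/M genes had 723 CPM (685 to 762) in 204 control and 1695 CPM (1654 to 1736) in 545 Keap1 cKO phagocytes, a log2 ratio of 1.23 (1.15 to 1.31), and S genes 622 and 715 CPM, 0.20 (0.10 to 0.30). In this class 25 of 28 G2/M members were at least 1.5-fold higher and 0 lower, and 8 of 25 S members higher and 1 lower, where 17.8% of 10555 genes were higher and 10.2% lower. Of the 6553 Keap1 cKO G2/M UMIs, 3535 came from 11 cells of cluster 16, of which 7 held Cd207 UMIs, and 2053 from cluster 12. Without cluster 16 the G2/M ratio was 0.38 and the S ratio -0.02. Cluster 2, with 169 and 356 cells, had 643 and 398 CPM of G2/M genes, -0.69 (-0.82 to -0.57), and 615 and 441 CPM of S genes, -0.48 (-0.60 to -0.36). In cluster 2, 0 of 21 measured S and 0 of 19 measured G2/M members were 1.5-fold higher and 10 and 15 were lower, where 15.8% of 9660 genes were higher and 10.9% lower; Mki67 had 37.1 and 9.91 CPM there, -1.91 (-2.65 to -1.21). Cluster 12, with only 34 and 178 cells, had 759 and 1796 CPM of G2/M genes, 1.24 (0.97 to 1.53), and 360 and 889 CPM of S genes, 1.31 (0.91 to 1.72). Of its cells deep enough to score, 0 of 12 control and 24 of 82 Keap1 cKO cells (29.3%, 19.7 to 40.4) were called; its median depth was 1017 and 1350.5 UMIs.

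Fibroblasts and endothelial cells held few called cells. Fibroblast S genes had 205 and 207 CPM, 0.02 (-0.09 to 0.13), and G2/M genes 313 and 223 CPM, -0.49 (-0.59 to -0.40), but 1043 of the 3279 control G2/M UMIs came from 1 cell of cluster 16, and without that cluster the ratio was -0.22. Among fibroblasts 18 of 27 measured G2/M members were at least 1.5-fold lower and 1 higher, where 16.2% of 12308 genes were lower and 14.7% higher; in clusters 1 and 5, which leave that cell out, 3 of 17 (where 16.1% of 11522 genes were lower) and 1 of 8 (18.2% of 10549) were lower. Endothelial cluster 8, with 53 and 203 cells, had 338 and 424 CPM of S genes, 0.33 (0.10 to 0.56), and 453 and 531 CPM of G2/M genes, 0.23 (0.03 to 0.43). In cluster 8, 8 of 12 measured G2/M members were at least 1.5-fold higher and 1 lower, where 26.1% of 10055 genes were higher and 9.84% lower; among them Top2a had 0 control and 54 Keap1 cKO UMIs, which is at least 3.40-fold higher, taking 3 counts over the group as the floor. Cluster 8 held 532550 control and 2821476 Keap1 cKO UMIs, so a member could reach 20 UMIs through the Keap1 cKO library alone, as Top2a did. The 16 G2/M members below 20 UMIs are not counted. The count therefore favours members high in that library, describes only those measured and is not a result about the list.

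Called T cells and called epithelial cells of the same library were set side by side, member by member. These cells were chosen by the same genes, so the values are a description. In the control library 19 of 23 measured S members were at least 1.5-fold higher in called T cells than in called epithelial cells. There 32.3% of all genes were higher. In the Keap1 cKO library 11 of 25 were higher and 2 lower, where 34.2% of all genes were higher. The libraries shared 10 of the higher members. The mix of calls differed as well. A G2/M call only was held by 83.5% of called control epithelial cells and 44.1% of called control T cells. In the Keap1 cKO library the shares were 47.1% and 39.3%. Without the 7 members set aside, a G2/M call only was held by 123 of 142 called epithelial and 4 of 11 called T cells in the control. In the Keap1 cKO library it was held by 33 of 60 and 17 of 73. Pcna had 51.1 CPM in called control epithelial cells and 249 CPM in called control T cells, and 137 and 228 CPM in the Keap1 cKO library. Cdca7 was the reverse in both libraries, at 103 and 19.5 CPM and at 72.9 and 33.3 CPM. Of the G2/M members 7 of 28 were higher and 9 lower in control T cells, and 4 and 7 in Keap1 cKO T cells, where 27.7% and 27.5% of all genes were lower. The counts lower in T cells lie near those shares, so the members named next are listed as values only. Those higher in T cells of both libraries were Hmgb2, Mki67 and Top2a, and those lower in both were Anln, Aurka, Ccnb1, Cdc20, Ckap2l and Tubb4b. Cdc20 had 313 CPM in epithelial and 117 CPM in T cells of the control library, and 202 and 45.9 CPM in the Keap1 cKO library, and Anln had 188 and 35.0 CPM and 85.2 and 23.9 CPM. Called cells kept the markers of their class: keratinocyte markers summed to 24563 CPM in control and 19402 CPM in Keap1 cKO called epithelial cells, where T cell markers summed to 38.0 and 128 CPM.

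Genes outside the lists were read in cells of clusters 4, 15 and 16 with and without a call, for keratins and NRF2 target genes chosen with earlier results known. In the control pool Krt6a, a keratin of activated epithelium, had 206 CPM in called and 252 CPM in other cells, and in the Keap1 cKO pool 1180 CPM in 60 called and 234 CPM in 27 other cells. Krt16, its stress-associated relative, had 1.83 and 2.11 CPM in the control and 172 and 40.3 CPM in the Keap1 cKO pool. Over all Keap1 cKO epithelial cells the order turned for both genes. Krt6a had 1348 CPM in called and 3115 CPM in other cells there, and Krt16 had 211 and 1242 CPM. Krt15, a basal keratin, had 7659 and 7489 CPM in the control and 765 and 1863 CPM in the Keap1 cKO pool, and Krt5 had 4359 and 4717 CPM in the control and 4595 and 4334 CPM in the Keap1 cKO pool. Gclc, the catalytic subunit of glutathione synthesis and an NRF2 target, had 49.2 and 43.0 CPM in the control and 518 and 268 CPM in the Keap1 cKO pool. The other NRF2 targets read were mixed. Gclm, the modifier subunit of the same enzyme, had 470 and 366 CPM in the control and, in the other direction, 829 and 1046 CPM in the Keap1 cKO pool (log2 -0.33, -0.46 to -0.21). Nqo1, a quinone reductase, had 110.2 and 59.4 CPM in the control and 126 and 98.4 CPM in the Keap1 cKO pool (0.35, -0.04 to 0.76). Slc7a11, a cystine transporter, had 3 and 0 UMIs in the control and 212 and 160 CPM in the Keap1 cKO pool (0.41, 0.10 to 0.72), and Srxn1, sulfiredoxin, 7.59 and 5.69 CPM and 32.7 and 34.3 CPM. The replication-dependent histone gene Hist1h2ap had 724 and 17.3 CPM in the control and 2234 and 74.6 CPM in the Keap1 cKO pool. Keap1 differed little with the call, at 85.6 and 76.1 CPM in the control and 59.6 and 58.2 CPM in the Keap1 cKO pool.

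Across 32 groups (cluster by library, each of at least 20 cells), the genes outside both lists whose log2(CPM + 10) followed the summed S genes most closely were Dek (Pearson r = 0.94), Nasp (0.93), Usp1 (0.93), Ppp4r3a (0.92) and Hnrnpd (0.92). For the summed G2/M genes they were H2afx (0.89), Kpna2 (0.89), Cenpw (0.88), Pmf1 (0.88) and Cks2 (0.88). Groups from the same library share its depth and free RNA, so these values are descriptions. Among the members, r with the own list ran from 0.44 (E2f8) to 0.92 (Mcm7) for S genes and from 0.68 (Nusap1) to 0.93 (Hmgb2) for G2/M genes. Each member is itself part of that sum, which raises its r, most for abundant members such as Hmgb2 with 21923 UMIs. The r values of members are therefore not comparable with those of the outside genes.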

How the data were processed

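Droplet 3′ RNA libraries of dispersed mouse esophagus, 1 control and 1 Keap1 cKO, were analysed from a deposited table of 4853 cells by 18595 genes with the authors' clusters and cell types. Per the submitters' processing notes, Cell Ranger 6.0.1, R 4.1.1 and Seurat 4.0.2 were used with mm10. The deposited values, made by the authors, are natural log values of 1 plus UMIs scaled to 10000 per cell. UMI counts were recovered from them (whole within 0.01). The plan had assumed counts. Sums over cells were divided by all UMIs of the same cells. Cells were thinned to 2000 UMIs (seed 1) before calls of at least 3 different genes. A gene needed 20 UMIs, the libraries summed, to enter a ratio, so it could pass on the UMIs of 1 library alone. Where a library had 0, a floor of 3 counts over the group was used. Intervals are exact Poisson (sums), Clopper-Pearson (shares) or conditional binomial (ratios), at 95%, and cover counting error only. Candidate doublets held markers of a second lineage at 25% or more of that lineage's median.

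Members and lists were chosen with earlier results of these data known. In each of 8 role groups the 2 members with most UMIs and the highest and lowest epithelial ratio were named, and always Mki67, Top2a, Pcna, Cdk1, Ccnb1 and Mcm2; of the other lists, likewise. Keratins, Gclc, Hist1h2ap and Keap1 were chosen after their values were seen. The ratio step was tested on simulated data. Python 3.11.15, numpy 2.4.6, scipy 1.17.1, pandas 2.3.3 and matplotlib 3.10.9 were used. Alternatives covered the thinning depth, the number of genes needed for a call, 7 members set aside by judgement, cell annotation, scaling and clusters left out.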

Additional observations from a re-analysis of the deposited data

Results flagged for a closer look

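The member genes went opposite ways between the libraries in 2 clusters. In epithelial cluster 4 the log2 ratio of Keap1 cKO over control was 1.77 for the summed S genes and 2.09 for the summed G2/M genes. In phagocyte cluster 2 it was -0.48 and -0.69. With 1 library per genotype the difference between the clusters was not tested.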

How the results depend on the processing

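No paired analysis was possible because each genotype has 1 library. Percentages are given as control and Keap1 cKO. The set of cells counted changes with the thinning depth, and without thinning all cells are counted, so these settings differ in cells as well as in depth. For epithelial cells with any call (32.1% and 26.5%), thinning to 1000 UMIs gave 22.4% in the control, 4000 UMIs gave 48.0% and 38.3%, no thinning 73.3% and 56.2%, a call at 2 genes 51.1% and 44.3%, a call at 5 genes 19.5% and 18.9%, and leaving out the 7 members set aside 22.1% and 22.7%, which turned the order. For epithelial cells with both calls (2.96% and 10.98%) the same settings gave 0.823% and 3.55%, 10.6% and 18.9%, 50.8% and 38.2% (order turned without thinning), 9.66% and 17.05%, 0.935% and 4.92%, and 6.06% in the Keap1 cKO library without the 7 members set aside. The authors' annotation gave 1.60% in the control.

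For T cells with any call (28.1% and 25.5%) the order turned under every one of these settings except 4000 UMIs (62.4% and 57.2%): 9.76% and 12.2% at 1000 UMIs, 77.2% and 84.7% unthinned, 54.5% and 60.3% at 2 genes, 6.61% and 9.31% at 5 genes, and 9.09% and 12.8% without the 7 members set aside. The authors' annotation gave 37.4% in the control. For T cells with both calls (5.79% and 6.503%) the order turned at 1000 UMIs (4.07% and 3.30%), at 4000 UMIs (19.3% and 18.4%) and with the authors' annotation (12.2% and 8.25%), while no thinning gave 30.9% and 50%, 2 genes 14.05% and 14.9%, and 5 genes 3.34% in the Keap1 cKO library.

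For cluster 4 with any call (27.01% and 66.25%), 1000 UMIs gave 10.5% in the control, 4000 UMIs 48.9% and 78.4%, no thinning 99.0% and 91.4% (order turned), 2 genes 48.2% and 78.75%, 5 genes 8.36% and 50%, and leaving out the 7 members set aside 12.9% in the control. Both calls there (1.29% and 32.5%) became 0% and 10%, 6.43% and 47.3%, 77.6% and 74.2% (order turned), 8.04% and 46.25%, 0.322% and 16.25%, and 0.322% and 20%.

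For summed log2 ratios, giving each cell equal weight gave 1.31 for S genes and 0.18 for G2/M genes in the pool of clusters 4, 15 and 16, 1.61 and 1.90 in cluster 4, 0.31 and 0.83 in phagocytes, and for G2/M genes -0.35 in epithelial cells, -0.23 in T cells and -0.24 in fibroblasts. Leaving out the 7 members set aside gave 0.89 and -0.29 in epithelial cells, 1.503 for S genes in the pool, 1.91 and 2.40 in cluster 4, 0.23 and -0.56 in T cells, and for G2/M genes 1.39 in phagocytes and -0.62 in fibroblasts. Leaving out clusters 15 and 16 gave 1.11 and, turned in sign, 1.12 in epithelial cells, -0.025 (turned) and 0.38 in phagocytes, and for G2/M genes -0.027 in T cells and -0.22 in fibroblasts. Leaving out cluster 4, added after seeing the data, gave -0.46 (turned) and -1.68 in epithelial cells. The epithelial medians were 1.60 and 2.21 (turned) without clusters 15 and 16 and -0.44 (turned) and -2.00 without cluster 4. The G2/M median was -0.21 with median-of-ratios scaling, and the cluster 4 S median 2.31 at 50 UMIs or more. With equal weight per cell the single members Dut (-0.0084), Nusap1 (-0.25) and Tubb4b (0.048) changed sign. Other causes of these changes were not tested. Another thinning seed and leaving out candidate doublets changed none of the 12 shares, and leaving out cluster 10 none of the 6 results recomputed; these, the pool and cluster 4 left out were chosen after seeing the data, except the doublets. The minimum of 2000 UMIs left out, in the control and then the Keap1 cKO library, 137 of 185 and 103 of 115 cells of cluster 6, 131 of 170 and 78 of 81 of cluster 10, and 22 of 34 and 96 of 178 of cluster 12.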
